A study of Homo sapiens with 20 samples.

Results

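Expression of 5 genes that direct T cell traffic was examined in WT Jurkat T lymphoblasts and in the CD47-deficient Jurkat somatic mutant JinB8, called CD47- below. The genes were taken by name from the 60719 genes of the count table: the chemokine receptors CXCR4, CCR7 and CCR9, the sphingosine 1-phosphate (S1P) receptor S1PR1, and the transcription factor KLF2. Jurkat is an established human T cell leukaemia line, and JinB8 is a mutant derived from it, so the CD47- group is a single mutant line. Each line gave 10 libraries: 1 untreated (UT) at 1 h, and 1 at each of 1, 3 and 6 h on immobilized anti-CD3 plus anti-CD28 (CD3+CD28), on the same antibodies with 1 μg/ml thrombospondin-1 (CD3+CD28+TSP1), and with TSP1 alone. The antibody coat held anti-CD28 at 4 μg/ml, and both lines were kept in the same serum-free medium. TSP1 is a secreted protein that binds CD47. Every condition had 1 library, so libraries of other times and treatments supplied the spread. No source says that they came from independent cultures, and every p-value therefore measures only the spread between these libraries.

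Chemokine receptors couple to inhibitory G proteins and draw T cells along gradients of their ligands. CXCR4 binds CXCL12, which retains cells in bone marrow, CCR7 binds CCL19 and CCL21, which guide naive T cells into lymph nodes, and CCR9 binds CCL25, which is made in thymus and small intestine. S1PR1 senses S1P in blood and lymph and lets T cells leave lymphoid organs. KLF2 is a zinc finger factor of quiescent T cells that binds the S1PR1 gene and raises its transcription, and T cell receptor signalling is known to lower it. CD69, an early activation marker, binds S1PR1 protein and removes it from the cell surface.

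All 5 genes lie on separate chromosomes of GRCh38. By GENCODE 44, CXCR4 spans chr2:136114349-136119177 on the minus strand, CCR7 chr17:40553769-40565472 on the minus strand, CCR9 chr3:45884425-45903174, S1PR1 chr1:101236865-101243713 and KLF2 chr19:16324826-16328685, the last 3 on the plus strand. Because KLF2 is a known activator of S1PR1, the bases upstream of a main start site are shown for S1PR1, for CXCR4 and CCR9, which like CCR7 moved the other way between the lines, and for KLF2 itself. No promoter of CCR7 is shown. They were read from RefSeq promoters of GRCh38.p14, 5′ to 3′ on the gene's own strand, and stop where an annotated exon of the gene begins. Capitals mark CACCC, the core of many KLF sites, and GGGCGTGG, a GC-rich octamer, on either strand, and no other GC-rich element. The S1PR1 stretch is chr1:101236769-101236864, the CXCR4 stretch chr2:136118150-136118399, the CCR9 stretch chr3:45886293-45886508 and the KLF2 stretch chr19:16324576-16324825.
S1PR1: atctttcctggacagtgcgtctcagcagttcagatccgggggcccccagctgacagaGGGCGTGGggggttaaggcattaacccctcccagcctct
CXCR4: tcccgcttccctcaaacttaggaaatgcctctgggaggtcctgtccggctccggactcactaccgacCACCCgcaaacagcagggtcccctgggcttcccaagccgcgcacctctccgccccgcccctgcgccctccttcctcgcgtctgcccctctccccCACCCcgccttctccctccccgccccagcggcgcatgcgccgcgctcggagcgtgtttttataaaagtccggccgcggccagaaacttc
CCR9: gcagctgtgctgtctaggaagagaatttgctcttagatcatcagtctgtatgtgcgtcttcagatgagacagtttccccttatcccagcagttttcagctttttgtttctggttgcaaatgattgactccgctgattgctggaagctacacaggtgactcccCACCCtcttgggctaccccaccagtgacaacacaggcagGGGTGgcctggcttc
KLF2: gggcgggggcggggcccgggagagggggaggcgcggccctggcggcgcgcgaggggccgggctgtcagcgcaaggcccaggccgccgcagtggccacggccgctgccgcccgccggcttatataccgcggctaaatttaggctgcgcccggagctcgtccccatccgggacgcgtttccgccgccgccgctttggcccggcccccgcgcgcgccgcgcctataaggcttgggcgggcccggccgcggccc
The S1PR1 stretch of 96 bases held 1 GGGCGTGG, which 4.71% of 35116 RefSeq promoters hold in their 250 upstream bases. The CXCR4 and CCR9 stretches each held 2 CACCC, a pentamer found in 54.7% of those promoters. In the whole 250 bases before the S1PR1-201 start there were also 2 CACCC, inside annotated exons of other S1PR1 transcripts. The KLF2 stretch contained neither motif, and TGTTTAC, a forkhead element searched for on both strands, was in none of the windows of these 4 genes and in 2.98% of all. These matches describe sequence and were not tested for binding.

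Library totals ranged from 16107921 to 31737616 counts, and 3 counts, taken as the limit of detection, corresponded to 0.0979 to 0.156 CPM in a library, where CPM is the count per 1000000 scaled library counts. This limit covers counting error only. After a filter on low counts 16327 genes were tested, and all 5 members passed it. The CD47 transcript was lower in the CD47- library of 10 of 10 pairs with the same treatment and time, at 147 ± 12.6 CPM against 317 ± 42.1 CPM in WT (SD, n = 10 libraries each), so it was reduced and not absent. Of the T cell markers CD3D, CD3E, CD3G, CD2, CD5, CD7, CD28, LCK and ZAP70, 9 of 9 were above the limit of detection, with sums of 1298 to 1706 CPM in WT libraries against 1456 to 2111 CPM in CD47- libraries. Single markers differed between the lines, 6 of 9 higher and 1 lower in CD47- cells, beside 19.8% and 20.6% of all tested genes. CD28, the target of 1 of the antibodies, was 5.10-fold higher, and CD2 2.70-fold higher, whereas ZAP70 was 1.89-fold lower. The sum of 4 B cell markers was 35.6 to 55.9 CPM in WT libraries against 5.71 to 13.5 CPM in CD47- libraries, with CD79A at 42.2 ± 6.14 against 6.75 ± 1.95 CPM. The 4 myeloid, 4 fibroblast, 3 epithelial and 3 erythroid markers summed to at most 7.14, 7.94, 0.704 and 4.42 CPM in any library. Their part in the results was not tested. In bulk RNA, fewer cells with a transcript and less transcript per cell cannot be told apart. The CD47- CD3+CD28+TSP1 library at 3 h had the lowest total count and the largest scaling factor, 1.20 against 0.886 to 1.07 in the other 19 libraries.

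The receptors did not move as 1 group between the lines. CCR9, CXCR4 and CCR7 were lower in CD47- cells, whereas S1PR1 and KLF2 were higher. All 5 passed the line comparison (edgeR quasi-likelihood test on 20 libraries, Benjamini-Hochberg adjustment over all genes). Of the tested genes 40.4% also passed it, 19.8% upward and 20.6% downward. With the 10 pairs of the same treatment and time fitted as a block, 8957 genes passed, against 6596 without it. A call in this comparison was therefore common, and the sizes and the separation of the libraries are described for each gene. Each SE given with a fold change was calculated back from its log value and test statistic, so intervals built on it are approximate.

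CCR9 had the largest difference of the 5. Its level in WT cells ran from 3.10 CPM through a median of 7.41 to 9.67 CPM, and in CD47- cells from 0.660 through 1.44 to 1.83 CPM. Every WT library was above every CD47- library, although the CD47- values rest on 15 to 44 counts each. CCR9 was 5.20-fold lower in CD47- cells (log2 fold change -2.38, SE 0.24, adjusted p = 3.7e-08, edgeR), and the ratio of CD47- to WT in matched pairs lay between 0.158 and 0.249 at all 3 times. The 23 exon bases that CCR9 shares with the oppositely oriented gene LZTFL1 lie outside its main isoform.

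CXCR4 was the most abundant member in both lines. WT libraries ranged from 255 CPM through a median of 359 to 495 CPM, and CD47- libraries from 127 through 215 to 259 CPM. The ranges touched only at the WT CD3+CD28 library of 3 h, which lay between the CD47- libraries of 1 h. CXCR4 was 1.76-fold lower in CD47- cells (log2 fold change -0.81, SE 0.13, adjusted p = 3.59e-05, edgeR), lower in 10 of 10 pairs. The pair ratios averaged 0.733 at 1 h, 0.527 at 3 h and 0.445 at 6 h.

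CCR7 differed least clearly. WT libraries held 1.68 to 8.34 CPM with a median of 3.52, and CD47- libraries 2.11 to 3.53 CPM with a median of 2.73. The lines overlapped at 1 h and parted at 3 h, where WT libraries held 7.27, 8.15 and 8.34 CPM and CD47- libraries 2.87, 3.47 and 3.53 CPM. At 6 h they were closer and still apart, at 3.39 to 3.78 CPM in WT against 2.51 to 3.26 CPM, with the CD47- library lower in 3 of 3 pairs. CCR7 was 1.62-fold lower in CD47- cells over all times (log2 fold change -0.70, SE 0.24, adjusted p = 0.0239, edgeR) and lower in 8 of 10 pairs. The call rested on the 3 h libraries: at 1 h alone the log2 fold change was -0.16 (adjusted p = 0.584), and without the WT 3 h library of CD3+CD28, of CD3+CD28+TSP1 or of TSP1 it was -0.56, -0.55 or -0.60 (adjusted p = 0.0583, 0.0653 and 0.0528).

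S1PR1 was 2.98-fold higher in CD47- cells (log2 fold change 1.57, SE 0.088, adjusted p = 1.65e-12, edgeR). WT libraries were tightly grouped, from 15.8 CPM through a median of 17.0 to 19.8 CPM, and CD47- libraries spread from 38.1 through 53.2 to 61.2 CPM. The lines did not overlap, and the ratio of CD47- to WT in pairs ran from 1.92 at 3 h to 3.73 at 1 h.

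KLF2 was 2.05-fold higher in CD47- cells (log2 fold change 1.04, SE 0.13, adjusted p = 9.4e-07, edgeR). The lowest, median and highest WT libraries held 1.67, 2.87 and 3.60 CPM, against 4.69, 5.42 and 6.47 CPM in CD47- cells. Here too the lines did not overlap, with pair ratios between 1.47 and 3.09. KLF2 rested on 35 to 90 counts in a WT library and on 111 to 159 in a CD47- library.

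**Figure D1:**
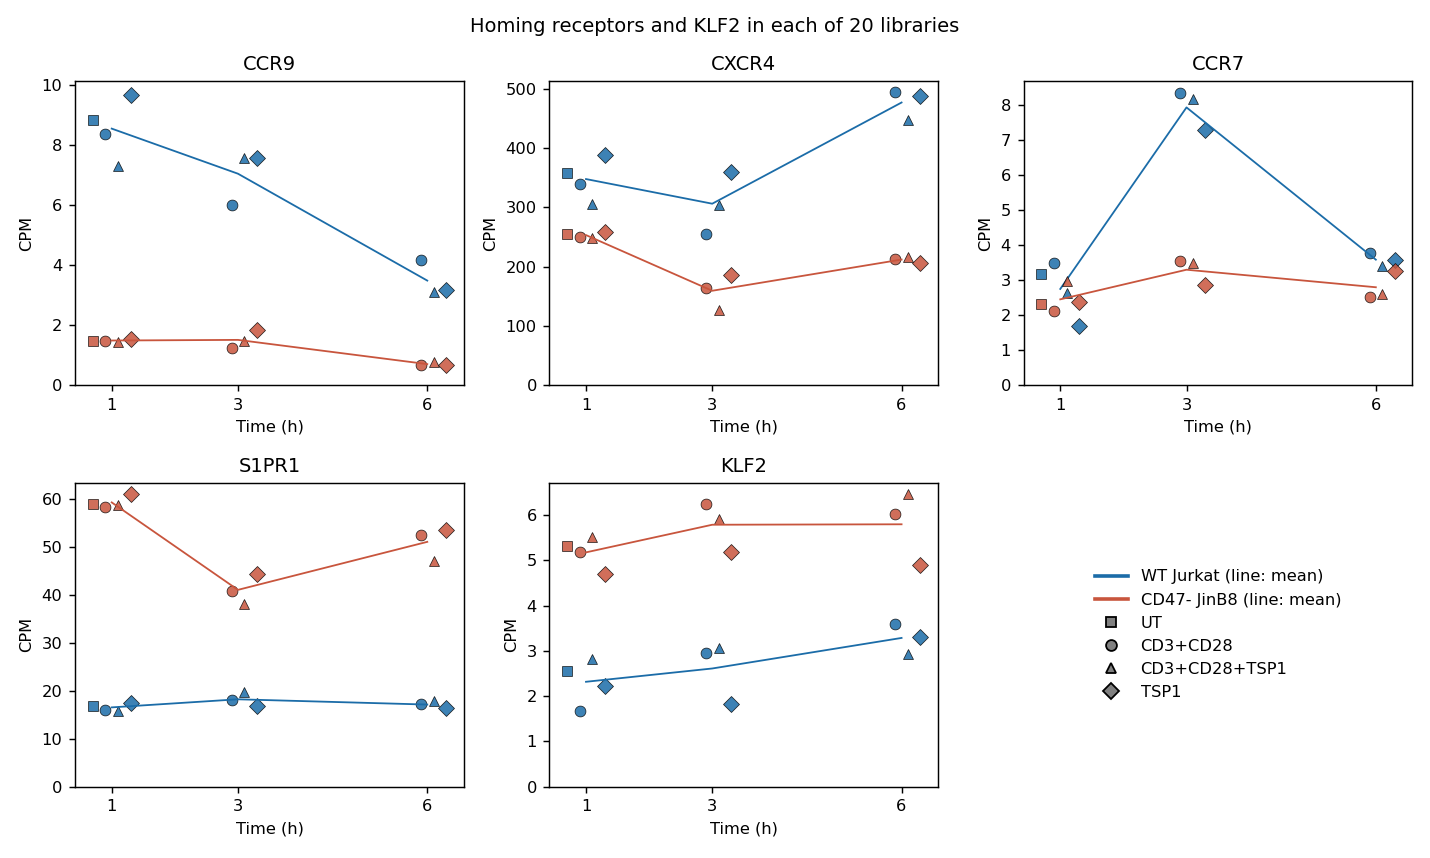
CPM of the 5 genes against time in hours, with each point 1 library, the symbol giving the treatment, the colour the cell line and the connecting line the mean of that time. CCR9, S1PR1 and KLF2 separate the lines at every time, CXCR4 parts further with time, and CCR7 parts at 3 h and, by less, at 6 h.

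**Figure D2:**
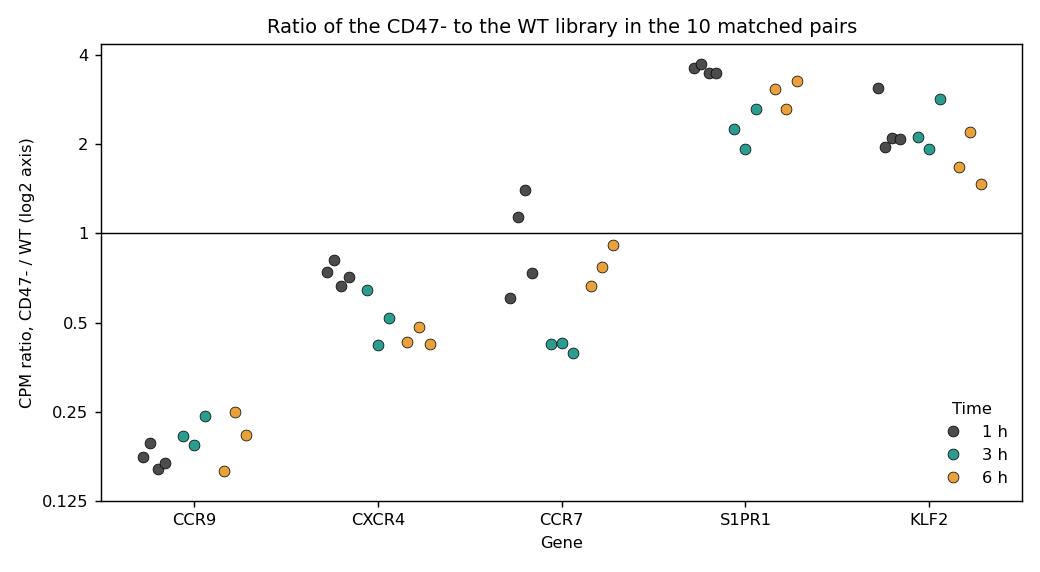
Ratio of CD47- to WT CPM for the 5 genes in the 10 matched pairs, on a log2 axis with the time as colour. CCR9 and CXCR4 lie below 1 and S1PR1 and KLF2 above 1 in 10 of 10 pairs, and CCR7 lies below 1 in 8 of 10.

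To order the genes, their levels were also divided by transcript length and expressed as TPM from the isoform counts. In WT cells CXCR4 came first at 209 ± 50.4 TPM, followed by S1PR1 at 6.15 ± 0.763, CCR9 at 2.47 ± 0.953, CCR7 at 1.97 ± 1.11 and KLF2 at 0.889 ± 0.200 TPM (SD, n = 10). CCR9 and CCR7 could not be ordered there, since CCR9 was the higher in only 4 of 10 libraries. In CD47- cells CXCR4 stood at 139 ± 26.7 TPM and S1PR1 at 21.6 ± 3.20 TPM. KLF2 followed there at 2.22 ± 0.427 TPM, ahead of CCR7 at 1.46 ± 0.404 and CCR9 at 0.558 ± 0.226 TPM, in that order in 10 of 10 libraries.

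The time course asked how the same genes changed from 1 to 3 and 6 h within a line, across the treatments. The 3 h and 6 h terms were fitted in 1 model of the 20 libraries (edgeR), where 34.3% of genes passed at 3 h against 1 h and 50.5% at 6 h against 1 h in WT, and 38.0% and 53.0% in CD47- cells. Between 3 and 6 h, 39.5% passed in WT and 39.0% in CD47- cells. Of the 5 members, 1 of 5 passed at 3 h and 3 of 5 at 6 h in WT, and 2 of 5 at each time in CD47- cells. UT libraries stopped at 1 h, and changes over time cannot be told apart from those that plating alone would bring.

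CCR9 fell late in both lines. WT libraries at 1 h held 8.83 (UT), 8.36 (CD3+CD28), 7.27 (CD3+CD28+TSP1) and 9.67 CPM (TSP1), and at 6 h 4.17, 3.10 and 3.16 CPM for the treated conditions in that order. CD47- libraries went from 1.43 to 1.55 CPM at 1 h to 0.660 to 0.773 CPM at 6 h. The log2 fold change at 6 h against 1 h was -1.28 (SE 0.18, adjusted p = 3.93e-05) in WT and -1.08 (SE 0.24, adjusted p = 0.00182) in CD47- cells. The difference between these falls was 0.20 with an interval of 2 SE from -0.43 to 0.82 (adjusted p = 0.722).

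The lines differed in how CXCR4 changed by 6 h. WT libraries held 358 (UT), 339 (CD3+CD28), 306 (CD3+CD28+TSP1) and 389 CPM (TSP1) at 1 h, 255, 304 and 360 CPM at 3 h, and 495, 448 and 489 CPM at 6 h. In CD47- cells the corresponding values were 255, 251, 249 and 259 CPM at 1 h, 164, 127 and 186 CPM at 3 h, and 214, 216 and 206 CPM at 6 h. Every WT library at 6 h was above every WT library at 1 h, and every CD47- library at 3 and 6 h was below every CD47- library at 1 h. In WT the rise at 6 h against 1 h was 0.48 on the log2 scale (SE 0.11, adjusted p = 0.00269), with no call at 3 h (-0.17, adjusted p = 0.256). In CD47- cells CXCR4 fell by 0.67 at 3 h (SE 0.11, adjusted p = 0.00046) and had a log2 value of -0.25 at 6 h (adjusted p = 0.0751). From 3 to 6 h it rose in WT by 0.65 (adjusted p = 0.000462) and in CD47- cells by 0.42 (adjusted p = 0.00896), on the log2 scale. The latter call was lost without the CD47- CD3+CD28+TSP1 library of 3 h (0.26, adjusted p = 0.0566) or of 6 h (0.33, adjusted p = 0.066). The lines differed in their 6 h change by -0.73 (SE 0.16, adjusted p = 0.0071), in a test that 16.6% of genes passed, and at 3 h by -0.50 (adjusted p = 0.0914).

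CCR7 rose briefly in WT cells. At 1 h its WT libraries held 3.16 (UT), 3.49 (CD3+CD28), 2.63 (CD3+CD28+TSP1) and 1.68 CPM (TSP1), at 3 h the levels given above, and at 6 h 3.78, 3.39 and 3.56 CPM. It was 3.11-fold higher at 3 h than at 1 h (log2 fold change 1.63, SE 0.20, adjusted p = 4.12e-05) and fell again by 1.14 on the log2 scale from 3 to 6 h (SE 0.20, adjusted p = 0.000423). The library with TSP1 alone, which had no antibodies, shared the peak. In CD47- cells the 3 h value was 0.41 (SE 0.21, adjusted p = 0.141). The lines differed in the 3 h change by -1.22 (SE 0.29, adjusted p = 0.0338), where 4.28% of genes passed, but this call was lost on leaving out any 1 of 11 libraries.

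S1PR1 stayed level in WT cells and dipped in CD47- cells. WT means were 16.6 ± 0.792 CPM at 1 h (SD, n = 4), 18.3 ± 1.49 at 3 h and 17.2 ± 0.730 CPM at 6 h (n = 3 each), with no call between times. CD47- libraries held 59.0 (UT), 58.3 (CD3+CD28), 58.9 (CD3+CD28+TSP1) and 61.2 CPM (TSP1) at 1 h, 40.9, 38.1 and 44.3 CPM at 3 h, and 52.6, 47.0 and 53.7 CPM at 6 h. The 3 time points did not overlap. S1PR1 fell by 0.54 at 3 h on the log2 scale (SE 0.075, adjusted p = 0.000123) and rose again by 0.31 from 3 to 6 h (SE 0.075, adjusted p = 0.0048), which left it 0.22 below 1 h (log2 fold change -0.22, SE 0.075, adjusted p = 0.0229). That last call was lost without the CD47- CD3+CD28+TSP1 library of 1 h (-0.17, adjusted p = 0.118) or of 6 h (-0.19, adjusted p = 0.107), or the TSP1 library of 6 h (-0.21, adjusted p = 0.0973). The lines differed in the 3 h change by -0.68 (SE 0.11, adjusted p = 0.00541). At 6 h the difference was -0.28 (SE 0.11, adjusted p = 0.102).

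KLF2 rose in WT cells by 6 h, with a call that depended on the setting, and had no called change in CD47- cells. WT libraries at 1 h held 2.56 (UT), 1.67 (CD3+CD28), 2.81 (CD3+CD28+TSP1) and 2.23 CPM (TSP1), and at 6 h 3.60, 2.94 and 3.32 CPM. The log2 fold change at 6 h against 1 h was 0.55 in WT (SE 0.21, adjusted p = 0.0397 by edgeR), a call that did not hold under DESeq2 (0.54, adjusted p = 0.0582) or without any 1 of 8 libraries. In CD47- cells the means were 5.17 ± 0.352, 5.78 ± 0.541 and 5.79 ± 0.818 CPM at 1, 3 and 6 h, and no step between times passed the test. The KLF2 value at 3 h in CD47- cells was 0.17 with an interval of 2 SE from -0.20 to 0.55. A relation between KLF2 and the S1PR1 dip at 3 h in these cells was not tested.

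**Figure D3:**
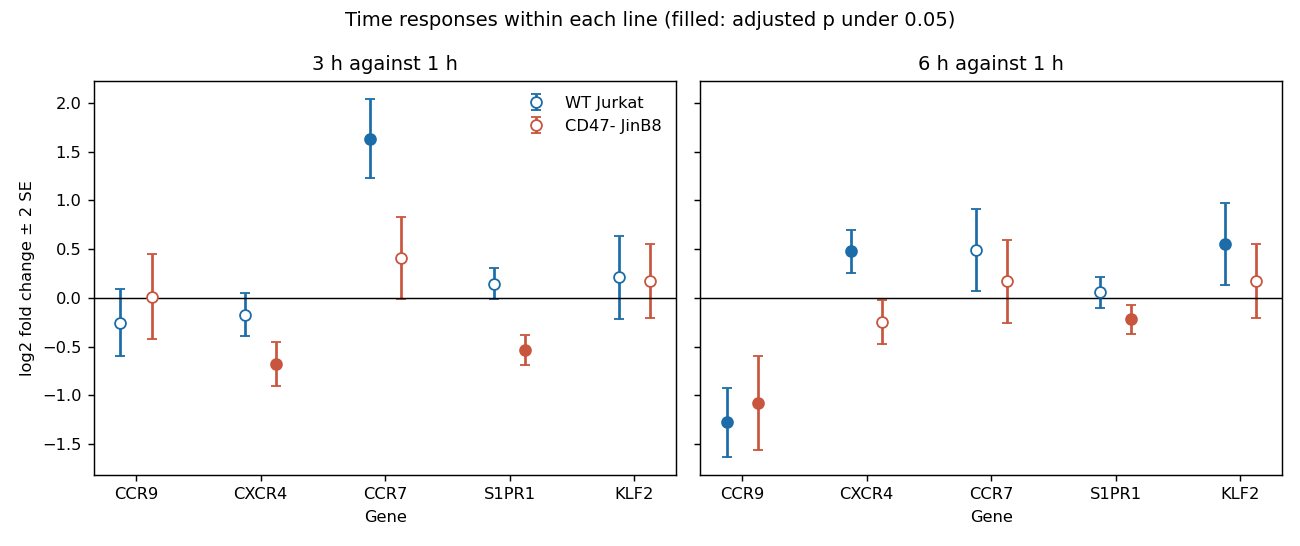
Log2 fold change with bars of 2 SE (edgeR model of 20 libraries) at 3 h and at 6 h against 1 h for the 5 genes in both lines, with filled points where the adjusted p was under 0.05. CCR9 fell at 6 h in both lines, CCR7 at 3 h and CXCR4 and KLF2 at 6 h rose in WT, and CXCR4 at 3 h and S1PR1 at both times fell in CD47- cells.

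The treatments were compared within each line across the 3 times: CD3+CD28+TSP1 against TSP1, which adds the antibodies, and against CD3+CD28, which adds TSP1. None of the 5 members passed in either line by edgeR, where 0.0919% of genes passed for the antibodies in WT, 15 genes in all, and 0.00% in the other 3 comparisons. By unadjusted p under 0.05, 816 genes and 1 member passed for the antibodies in WT, and 366, 2636 and 1771 genes and 0 members in the others. That member was CXCR4, lower in 3 of 3 WT pairs with antibodies, at ratios from 0.785 to 0.917 (log2 fold change -0.24, SE 0.11, adjusted p = 0.996). In CD47- cells its value was -0.18 (SE 0.11, adjusted p = 0.425). KLF2 had a log2 fold change of 0.28 in both lines (SE 0.21 in WT, 0.19 in CD47- cells), higher with antibodies in 2 of 3 WT and 3 of 3 CD47- pairs. CCR9 was at -0.15 in WT (SE 0.17) and -0.12 in CD47- cells (SE 0.23). CCR7 was at 0.21 (SE 0.20) and 0.10 (SE 0.21), and S1PR1 at 0.07 (SE 0.080) and -0.15 (SE 0.075), in the same order of lines. For S1PR1 in CD47- cells the antibody library was the lower in 3 of 3 pairs, at ratios from 0.858 to 0.962 (adjusted p = 0.324).

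Addition of TSP1 to the antibodies gave values on both sides of 0. The 5 members had log2 fold changes of -0.19 to 0.13 in WT, and of -0.11 to 0.17 in the CD47- line, with a lowest adjusted p of 0.645. For CXCR4 in WT the value was -0.02 with an interval of 2 SE from -0.24 to 0.20. No member passed the test of a difference between the lines in these treatment responses, with log2 differences from -0.22 to 0.36 and a lowest adjusted p of 0.705, where 0.00% of genes passed. Against the single UT library of each line, CD3+CD28 at 1 h gave ratios of 0.654 for KLF2 and 1.10 for CCR7 in WT, and 0.973 and 0.908 in CD47- cells. TSP1 alone gave 0.871 and 0.532 in WT, and 0.881 and 1.02 in CD47- cells. These ratios compare 2 libraries each. In the model none of the members passed for CD3+CD28 or TSP1 against UT in either line (lowest adjusted p = 0.711, 0.00% of genes).

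CD69, which acts on S1PR1 protein, was the one gene of the related lists below that passed a treatment comparison. In WT CD69 stood at 106 CPM in UT and 113 in TSP1 at 1 h, against 455 in CD3+CD28 and 365 CPM in CD3+CD28+TSP1. At 3 h CD69 was at 264 and 273 CPM with antibodies and 31.8 CPM with TSP1 alone, and at 6 h at 34.5, 56.1 and 20.3 CPM. In CD47- libraries CD69 lay at 54.2, 67.7, 55.4 and 59.7 CPM at 1 h for UT, CD3+CD28, CD3+CD28+TSP1 and TSP1, at 34.6, 22.1 and 27.1 CPM at 3 h, and at 8.14, 5.41 and 6.87 CPM at 6 h. Both antibody libraries lay above the TSP1 library at each time in WT, and on either side of it at each time in CD47- cells. CD69 was 4.11-fold higher with than without antibodies in WT (CD3+CD28+TSP1 against TSP1, log2 fold change 2.04, SE 0.28, adjusted p = 0.0184) and at -0.23 in CD47- cells (SE 0.30, adjusted p = 0.711). The difference between the lines was -2.27 (SE 0.41) with an adjusted p of 0.469 by edgeR and 0.0309 by DESeq2. The WT call was lost without the CD3+CD28+TSP1 library of 1 h, 3 h or 6 h or the TSP1 library of 1 h (adjusted p = 0.0834, 0.137, 0.113 and 0.0954), with the value between 1.84 and 2.23.

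Isoform counts were compared between the lines as well. Reads are divided between isoforms by a model, and this division is uncertain where isoforms overlap, as CXCR4-201 and CXCR4-202 do. CXCR4-201, which starts at 136118149 on chromosome 2, took 97.7% ± 0.426 of CXCR4 counts in WT and 95.9% ± 1.29 in CD47- cells (SD, n = 10). CXCR4-202 is annotated to start inside the gene, at 136116243, and was assigned 1.93% ± 0.446 in WT and 3.60% ± 1.03 in CD47- cells. Use of this start was not tested. The share of CXCR4-202 was 1.67 points higher in CD47- cells (permutation test over libraries, two-sided, p = 4e-05, or 0.00044 after adjustment over 11 isoforms). By level, CXCR4-201 was lower in CD47- cells, at 208 ± 41.5 CPM against 367 ± 83.0 CPM in WT (log2 fold change -0.82, SE 0.14, adjusted p = 0.000231, edgeR). CXCR4-202 stood at 7.13 ± 1.79 and 7.50 ± 1.49 CPM (log2 fold change 0.07, SE 0.15, adjusted p = 0.821), in a comparison that 15.1% of 55450 isoforms passed. The CD47- CD3+CD28+TSP1 library of 3 h had the lowest CXCR4 level and the highest share of CXCR4-202, 5.83%. CD47- libraries of 6 h held less CXCR4 than those of 1 h, and shares of 2.28% to 2.79% against 3.03% to 4.00%. A relation between level and share was not tested. S1PR1-201 held 83.0% ± 4.52 and 83.3% ± 2.70 of S1PR1 counts in WT and CD47- cells, and KLF2-201 and CCR7-201 over 95% of theirs in both lines. The share of CCR9-201 was 84.0% ± 13.1 in WT and 77.7% ± 36.8 in CD47- cells, where few counts left it poorly determined.

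**Figure D4:**
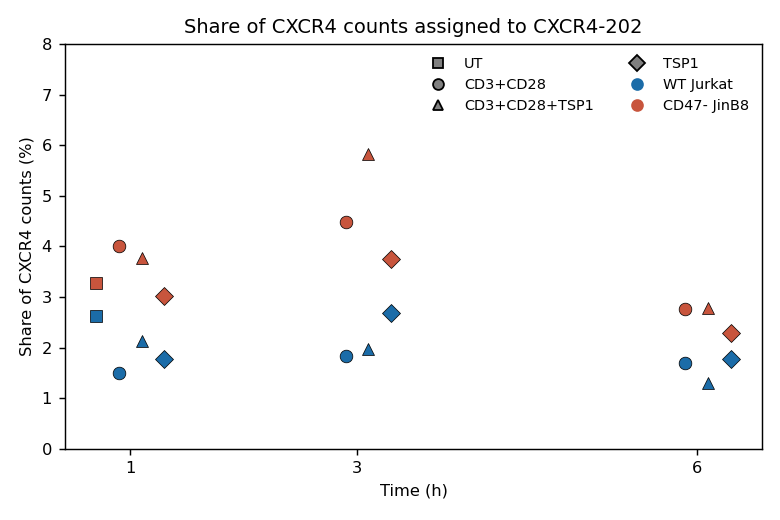
Percentage of CXCR4 counts assigned to CXCR4-202 in each library against time in hours, with colour for the line and symbol for the treatment. WT libraries lie at or below 2.69%, and CD47- libraries between 2.28% and 5.83%.

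Related genes were counted in lists without the 5 members, and read beside all tested genes, whose median log2 fold change between the lines was -0.007. The list of 21 other chemoattractant receptors had 11 tested, of which 7 were higher and 2 lower in CD47- cells (19.8% and 20.6% of all genes), with a median of 0.68. The low-count filter admits a gene that is high in 1 line alone, which then had to differ, so this tally is a description: over the 10 libraries of each line ACKR3 had 61 counts in WT and 303 in CD47- cells, and CXCR3 73 and 249, and CCR2 and GPR15 were also uneven. The lower receptors were CCR8, at 2.10 ± 1.17 CPM against 10.4 ± 3.34 CPM in WT (log2 fold change -2.29, SE 0.29, adjusted p = 1.08e-06), and GPR15, which guides T cells to the colon, with 304 counts over the WT libraries and 22 over the CD47- libraries. Among the higher ones, CCR4, a receptor of skin-homing and type 2 helper cells, stood at 23.2 ± 4.27 CPM against 6.11 ± 2.12 CPM in WT (log2 fold change 1.93, SE 0.17, adjusted p = 3.86e-09). CCR2, a receptor of inflammatory chemokines, had 1301 counts over the CD47- libraries against 135 over the WT libraries. CCRL2, a non-signalling chemerin receptor, was higher by 0.68 on the log2 scale (SE 0.19, adjusted p = 0.00689), a call lost at 3 and 6 h alone (0.34, adjusted p = 0.0598), and it rose at 6 h in WT by 1.15 (SE 0.17, adjusted p = 7.93e-05), with -0.02 in CD47- cells (adjusted p = 0.921). At 3 h against 1 h CCR8 fell in both lines, with log2 fold changes of -1.19 in WT and -1.53 in CD47- cells (adjusted p = 0.000891 and 0.000807). At 6 h against 1 h CCR8 was at -1.44 in CD47- cells (SE 0.27, adjusted p = 0.000511) and at -0.29 in WT (adjusted p = 0.269). The ligands CXCL12, CCL19, CCL21 and CCL25 were too low to test, with 0 of 4 passing the filter.

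In the S1P pathway, 12 of 15 genes were tested, 3 higher and 4 lower in CD47- cells (19.8% and 20.6% of all genes), with a median of -0.08. Among the 3 higher genes S1PR5 and S1PR4 were low in WT and the same limit applies, S1PR4 with 76 counts over the WT libraries and 142 over the CD47- libraries. The S1P receptors were not of 1 direction. S1PR3, chosen for mention after its values were seen and not run under the alternatives, was lower, at 37.6 ± 4.23 CPM against 53.6 ± 12.2 CPM in WT (log2 fold change -0.51, SE 0.12, adjusted p = 0.00112). S1PR5 had 14 counts over the 10 WT libraries and 421 over the 10 CD47- libraries, or 22 to 54 counts in each of the latter. The S1P exporter SPNS2 was also higher, at 14.1 ± 3.69 CPM against 3.74 ± 1.29 CPM in WT (log2 fold change 1.91, SE 0.19, adjusted p = 2.01e-08). The lipid phosphatases PLPP1 and SGPP1, which can remove the phosphate of S1P, were lower, with log2 fold changes of -1.06 (SE 0.13, adjusted p = 8.8e-07) and -0.54 (SE 0.090, adjusted p = 4.06e-05). CD69 was lower too (log2 fold change -2.33, SE 0.58, adjusted p = 0.00253), a value that pools libraries with and without antibodies. Without antibodies, WT libraries held 106 (UT), 113, 31.8 and 20.3 CPM of CD69 (TSP1 at 1, 3 and 6 h). The CD47- libraries held 54.2, 59.7, 27.1 and 6.87 CPM in that order. From 1 to 6 h CD69 fell in both lines, with log2 fold changes of -2.94 in WT (adjusted p = 1.8e-06) and -3.18 in CD47- cells (adjusted p = 1.76e-06). The sphingosine kinase SPHK2 rose in both, by 1.06 (adjusted p = 2.43e-05) and 1.14 (adjusted p = 1.21e-05).

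The other KLF genes were called between the lines about as often as all genes, of which 40.4% passed. Of 12 other KLF genes tested, 1 was higher, 4 were lower and 7 did not pass, with a median of -0.38. The higher one was KLF4, which like KLF2 restrains T cell proliferation, at 6.22 ± 1.90 CPM against 1.76 ± 0.581 CPM in WT (log2 fold change 1.82, SE 0.20, adjusted p = 1.35e-07). KLF5 and KLF13 were lower, with log2 fold changes of -1.29 and -0.47 (adjusted p = 2.06e-05 and 0.000267), and KLF8 had 123 counts over the CD47- libraries against 298 over the WT libraries. At 6 h against 1 h 8 of 12 fell and 0 rose in WT, where 24.8% of all genes fell and 25.7% rose. In CD47- cells 6 fell and 2 rose, beside 27.0% and 26.0% of all genes. KLF10, an early response gene, had log2 fold changes of -3.62 in WT (SE 0.23, adjusted p = 3.81e-08) and -2.78 in CD47- cells (SE 0.22, adjusted p = 2.13e-07), and KLF7 of -1.41 and -1.42 (adjusted p = 2.31e-07 and 2.55e-07).

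Among 11 factors known to act on KLF2, 2 were higher and 3 lower in CD47- cells, a share near the 40.4% of all genes, with a median of -0.21. MEF2A, which activates the KLF2 promoter downstream of the kinase MAPK7, was lower (log2 fold change -0.78, SE 0.066, adjusted p = 2.06e-09). The forkhead factor FOXO4 was lower (-0.54, SE 0.12, adjusted p = 0.00103) and FOXO3 higher (0.28, SE 0.082, adjusted p = 0.00806), as was WWP1, a ubiquitin ligase that marks KLF2 for degradation (0.33, SE 0.10, adjusted p = 0.0126). At 1 h alone FOXO3 and WWP1 were at 0.0025 and 0.084 (adjusted p = 0.977 and 0.57). At 6 h, 7 of 11 fell and 0 rose in WT (24.8% and 25.7% of all genes), and 6 fell and 0 rose in CD47- cells (27.0% and 26.0%). FOXP1, a forkhead factor of quiescent T cells, had log2 fold changes of -0.48 in WT and -0.63 in CD47- cells (adjusted p = 0.000948 and 9.88e-05), and the ubiquitin ligase SMURF1 of -0.47 and -0.52 (adjusted p = 7.88e-05 and 3.03e-05).

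Genes of receptor coupling and desensitization had 17 of 19 tested, with 7 higher, 0 lower and a median of 0.34, beside 19.8% and 20.6% of all genes. ARRB1, an arrestin that uncouples activated receptors, was at 70.2 ± 21.6 CPM against 11.1 ± 3.84 CPM in WT (log2 fold change 2.66, SE 0.21, adjusted p = 8.35e-10). RGS16, RGS14 and RGS18, which shorten G protein signalling, were higher by 2.03 (SE 0.29, adjusted p = 5.1e-06), 1.80 (SE 0.29, adjusted p = 3.32e-05) and 0.85 (SE 0.17, adjusted p = 0.000348). ARRB1 rose with time in both lines, by 1.15 in WT and 1.00 in CD47- cells at 6 h (adjusted p = 2.42e-07 and 1.57e-07). The receptor kinase GRK3 fell, with log2 fold changes of -0.41 in WT and -0.96 in CD47- cells (adjusted p = 6.79e-05 and 2.78e-08).

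**Figure D5:**
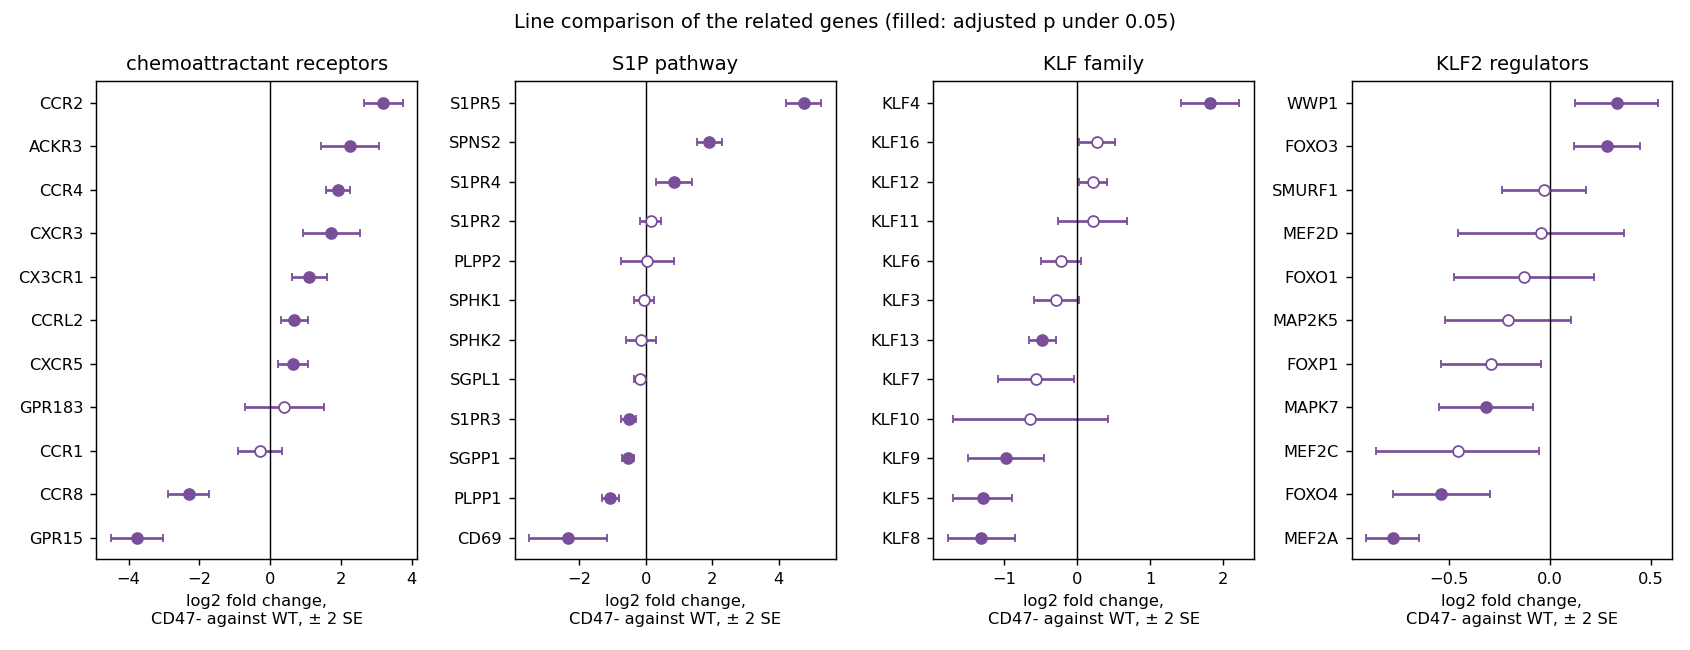
Log2 fold change between CD47- and WT cells with bars of 2 SE (edgeR, 20 libraries) for the tested genes of 4 lists other than the members, filled where the adjusted p was under 0.05. More filled points of chemoattractant receptors lie to the right (7) than to the left (2), but CCR2, ACKR3 and CXCR3 among the 7 had only 135, 61 and 73 counts over the 10 WT libraries, and S1PR5 and GPR15 also rest on few counts in 1 line.

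The genes most like each member across the 20 libraries, once the mean of each line was subtracted, were sought among the 12491 tested genes that averaged a log2 CPM of 1 or more. For CCR9 they were OTUD3, ZNF549 and RIMKLB (Pearson r = 0.963, 0.956 and 0.949), for CXCR4 HARS2, PTP4A2 and ETS1 (0.958, 0.940 and 0.939), and for CCR7 ZSCAN29, DDR2 and STIM2 (0.901, 0.896 and 0.888). For CCR7 the likeness lay mainly in WT, with r of 0.921 to 0.980 there against 0.479 to 0.679 in the CD47- line. S1PR1 was most like TBC1D4, NDST2 and HSPH1 (0.900, 0.839 and 0.839), mainly in the CD47- line, where r was 0.896 to 0.941 against 0.307 to 0.570 in WT. KLF2 had the lowest values, with ELK1, WASHC1 and UNK at 0.796, 0.760 and 0.734. The points share time points and line means, so these r describe likeness of the time patterns and carry no test.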

How the data were processed

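mRNA of WT and CD47- Jurkat cells was sequenced in 20 libraries. Per the submitters' notes and the study's methods, the authors used Cutadapt 1.18 for trimming and STAR 2.4.2a on GRCh38, and deposited expected counts per gene and isoform from RSEM 1.3.3 with GENCODE 36, scaled neither by library nor by length. The strand setting is not given in the sources used here. Each deposited table held 2 columns of other samples, which were not used. The 5 genes and the related lists were chosen with earlier results of these data known. 1 gene of the receptor list is not reported here and is left out of its counts.

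Expected counts were rounded and tested in edgeR 4.0.16 (R 4.3.3; TMM factors; filterByExpr by line with minimum count 10 and minimum total 15; quasi-likelihood tests; Benjamini-Hochberg threshold 0.05), after a test on simulated data. Each SE was calculated back from the log fold change and its quasi-likelihood statistic, and is not a standard error of the fitted model. It can be off where the change is very small. The line comparison used 20 libraries without other terms. Times and treatments came from a model with a coefficient per line and treatment and 3 and 6 h terms per line. CPM used TMM-scaled totals, and TPM used lengths of the 219802 of 232184 isoforms found in GENCODE 44. Isoform shares were compared by permutation tests with 100000 resamples.

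Besides the members and CD47, genes were named by rule: per list, up to 4 with the smallest adjusted p between lines and up to 2 at 6 h against 1 h, and 3 by likeness per member. S1PR3, S1PR4, ACKR3 and CXCR3 were named after their values were seen. Libraries matched for treatment and time formed 10 pairs, whose deviations from the line means correlated at 0.126 to 0.602 across genes, and 2 of 10 libraries matched best with their own partner. Alternatives were DESeq2 1.42.0, limma 3.58.1 voom with quantile normalization, upper-quartile factors, 2 other filters, a replicate block, fewer times and leaving out each library.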

Additional observations from a re-analysis of the deposited data

Results flagged for a closer look

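In 3 results the lines differed in a time response by the interaction test, which 4.28% of all genes passed at 3 h and 16.6% at 6 h. The change of CXCR4 at 6 h against 1 h was lower in CD47- than in WT cells by 0.73 on the log2 scale (difference -0.73, adjusted p = 0.0071, edgeR): WT libraries rose from 306 to 389 CPM to 448 to 495 CPM, and CD47- libraries went from 249 to 259 CPM to 206 to 216 CPM. The change of S1PR1 at 3 h differed by -0.68 (adjusted p = 0.00541), with CD47- libraries at 38.1 to 44.3 CPM after 58.3 to 61.2 CPM and WT libraries at 16.8 to 19.8 CPM after 15.8 to 17.5 CPM. The change of CCR7 at 3 h differed by -1.22 (adjusted p = 0.0338, a call lost on leaving out any 1 of 11 libraries), with all 3 WT libraries at 7.27 CPM or above after at most 3.49 CPM, and CD47- libraries at 2.87 to 3.53 CPM after 2.11 to 2.98 CPM. By Dixon's test no library of the 5 genes stood outside the 4 libraries of 1 h or the 10 libraries of its line. The 10 libraries pool the times, whose changes widen the range. The groups of 3 libraries at 3 h and 6 h were not tested, so an outlier within them could not be seen. The cause of the 3 differences was not tested.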

How the results depend on the processing

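The lines differed in the same direction for the 5 genes under every alternative that tested them, and calls in the treatment comparisons stayed at 0 of 5. A filter of 1 CPM in every library left CCR9 untested. With the 10 matched pairs as a replicate block the line log2 fold changes were -2.37 (CCR9), -0.82 (CXCR4), -0.56 (CCR7), 1.56 (S1PR1) and 1.06 (KLF2), each called, and the block changed no call of the 5 genes. At 1 h only, CCR7 was at -0.16 (adjusted p = 0.584). The KLF2 rise at 6 h in WT lost its call under DESeq2 (0.54, adjusted p = 0.0582), without a filter (0.54, 0.0539) and with WT libraries alone (0.54, 0.0698). The line difference in the 3 h change of CXCR4 was called under DESeq2 (-0.50, 0.0281) and without a filter (-0.49, 0.00418). Without a filter, the 6 h change in CD47- cells was called for CXCR4 (-0.26, 0.0165) and not for S1PR1 (-0.23, 0.117). Under limma voom with quantile normalization, which changed the test and the scaling together, 4 uncalled values changed sign. In WT this was S1PR1 at 6 h against 1 h (-0.015). In CD47- cells they were CCR9 at 3 h (-0.17), KLF2 at 6 h against 3 h (0.048) and KLF2 with TSP1 added to antibodies (-0.034). The cause was not tested.

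Leaving out 1 library at a time moved the following log2 values. For the line, CCR7 ran from -0.78 to -0.55 (3 of 20 lost the call, each a WT library of 3 h). In WT at 3 h against 1 h, KLF2 ran from -0.036 to 0.43. In WT at 6 h against 1 h, CCR7 ran from 0.24 to 0.69 (called without CD3+CD28 of 1 h), S1PR1 from -0.041 to 0.13, and KLF2 from 0.29 to 0.79. The KLF2 call was lost without WT CD3+CD28 or TSP1 of 1 h, CD3+CD28+TSP1 of 3 h, CD3+CD28 or TSP1 of 6 h, or CD47- CD3+CD28 of 1 h, CD3+CD28 of 6 h or TSP1 of 6 h. In CD47- cells at 3 h CCR9 ran from -0.15 to 0.13. At 6 h against 1 h, CXCR4 ran from -0.35 to -0.15 (called in 4 of 20), CCR7 from -0.0054 to 0.32 and S1PR1 from -0.25 to -0.17 (3 lost). At 6 h against 3 h, CXCR4 ran from 0.26 to 0.55 (2 lost) and KLF2 from -0.068 to 0.035. For the difference between lines at 3 h, CXCR4 ran from -0.63 to -0.34 (called in 2), CCR7 from -1.41 to -0.97 and KLF2 from -0.26 to 0.24. The CCR7 call was lost without CD3+CD28+TSP1 or TSP1 of 1 h or 3 h or CD3+CD28 or CD3+CD28+TSP1 of 6 h in WT, or any antibody or TSP1 library of 1 h, TSP1 of 3 h or CD3+CD28 of 6 h in CD47- cells (adjusted p up to 0.124). With TSP1 added to antibodies in WT, CCR9 ran from -0.27 to 0.087, CXCR4 from -0.15 to 0.069, S1PR1 from -0.010 to 0.12 and KLF2 from -0.10 to 0.37. In CD47- cells, CXCR4 ran from -0.21 to 0.037 and KLF2 from -0.011 to 0.093. With antibodies added to TSP1 in CD47- cells, CCR9 ran from -0.20 to 0.048 and CCR7 from -0.050 to 0.29.

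Counts of genes that moved over 1.5 times were those of the line difference at 3 h (698, against 1069 by DESeq2 and 1397 without a filter, and 169 to 1066 on leaving out a library) and at 6 h (2714, against 1459 to 4273 on leaving out a library). The 15 genes for antibodies in WT became 54 by DESeq2, 28 by limma voom with quantile normalization and 201 without a filter. They became 5 with WT alone, 0 without time terms and 0 to 42 on leaving out a library. The 0 genes of the other treatment comparisons became 1 by DESeq2 and 84 without a filter (TSP1 added, WT), 538 and 401 without a filter (antibodies and TSP1 added, CD47-), and, for the differences between lines, 4 by DESeq2, 255 without a filter and 0 to 9 on leaving out a library (antibodies) and 140 without a filter (TSP1 added). Against UT, where edgeR called 0 genes, DESeq2 called 7 for CD3+CD28 and 1 for TSP1 in WT, and 2 and 3 in CD47- cells. Upper-quartile scaling made 51.5% of the calls at 6 h between lines higher, against 38.9%. The WT CD69 antibody call was lost with WT alone (adjusted p = 0.0925) and without time terms (1), and its difference between lines was called by DESeq2 (-2.24, adjusted p = 0.0309), without a filter (-2.27, 5.36e-54) and without WT TSP1 of 6 h (-2.71, 0.0233). The adjusted p without a filter is no measure of strength, since the same value of -2.27 had an adjusted p of 0.469 in the main edgeR fit. CCR9 and its isoforms rested on few counts in CD47- cells, at 15 to 44 counts a library for the gene.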
